A study of Mus musculus with 2 samples.

Results

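Janus kinases (JAKs) and signal transducers and activators of transcription (STATs) carry cytokine signals from the cell surface to the nucleus. The genes described here are the 4 kinases *Jak1*, *Jak2*, *Jak3* and *Tyk2* and the 5 transcription factors *Stat2*, *Stat3*, *Stat5a*, *Stat5b* and *Stat6*. They were chosen by name, as every probe set that the array's annotation assigns to exactly 1 of them, and are 9 of the 18193 genes measured, with 20 probe sets. Expression was measured in primary mouse neonatal ventricular cardiomyocytes (mNVCM) with 1 Affymetrix array for hAFS-CMHypo + Dox and 1 for Dox. hAFS-CMHypo is medium conditioned under hypoxia by stem cells of human amniotic fluid, pooled from several donors, and Dox is doxorubicin, an anthracycline that damages DNA. Both cultures came from C57BL6/J mice at 2 days postnatal, were grown for 48 to 72 h and were kept for 1 h in medium with 0.5% serum. One was then pre-incubated for 3 h with hAFS-CMHypo and the other was not, and both received 1 μM Dox. The labels give 6 h of Dox for hAFS-CMHypo + Dox and 21 h for Dox, whereas the paper's methods give a single time for gene expression, so the pre-incubation and a difference in hours cannot be told apart here. There was no untreated array. There were no replicates, so no value carries an error or a p-value and all of them describe these 2 arrays alone.

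JAKs sit on the inner tails of cytokine receptors. When a ligand brings the receptor chains together, the kinases phosphorylate each other, the receptor and the STATs bound to it, and the STATs pair up and enter the nucleus. JAK1, JAK2 and TYK2 are found in most cell types, and JAK3 mainly in blood cells, where it serves receptors that use the common gamma chain. In the heart, STAT3 is known for its part in the response to cytokines of the IL-6 family and in protection from ischemic injury. These steps run through phosphorylation, which an expression array does not measure.

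None of the JAK and STAT genes differed by 2-fold between the arrays, the threshold used in the study. Changes past 2-fold were rare across the array, at 0.72% of the 18193 genes, so a count of 0 among 9 genes is close to the background. None of the 9 reached 1.5-fold either, against 3.84% of all genes, and none of their 20 probe sets reached 2-fold, against 0.681% of all probe sets with 1 gene. The smaller differences went in both directions: *Jak1*, *Jak2*, *Stat3* and *Stat6* were higher with hAFS-CMHypo + Dox, and *Stat2* and *Stat5b* were lower, each past the probe set SD, the pooled spread of the log2 ratios that different probe sets give for 1 gene. The probe set SD was 0.21 on the log2 scale, or 1.16-fold, over the 5299 genes with several probe sets at or above the median signal. It measures disagreement within these arrays and holds nothing of the variation from culture to culture. Past that SD, 4 of 9 genes were higher (44.4%), against 17.5% of all genes, and 2 of 9 were lower (22.2%), against 15.5%. These gene counts depended on the choice of probe set. With the mean over each gene's probe sets, *Stat3* (0.20), *Stat6* (0.13) and *Stat5b* (-0.18) lay within that SD. *Jak1* (0.26), *Jak2* (0.43) and *Stat2* (-0.44) stayed past it. Counted over the 20 probe sets, 6 were higher (30.0%), against 17.2% of all probe sets with 1 gene, and 3 were lower (15.0%), against 16.3%. The median log2 ratio of the 9 genes, hAFS-CMHypo + Dox over Dox and each read at its brightest probe set (the highest mean of the 2 arrays), was -0.04, and that of all genes was 0.01. The sign of the first value was not fixed, as the mean over each gene's probe sets gave 0.01 and the choice of the most changed probe set gave 0.18.

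**Figure D1:**
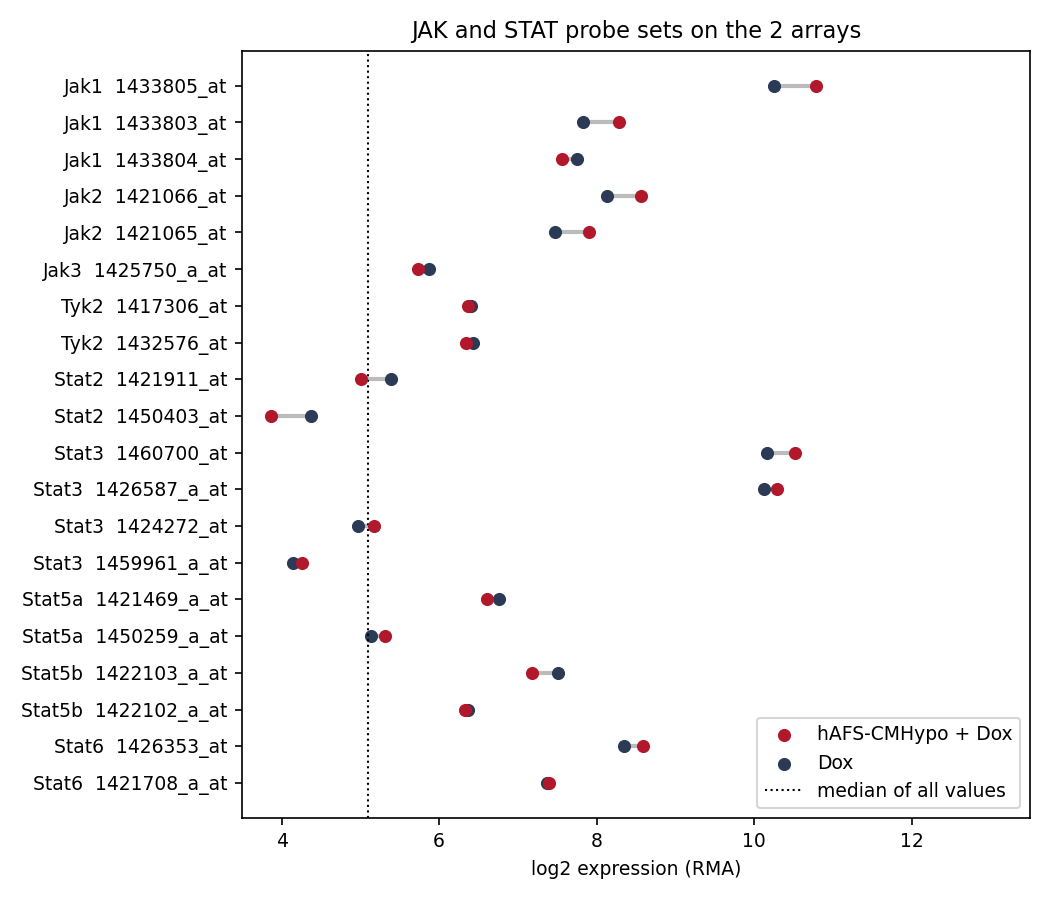
Log2 expression (RMA, horizontal axis) of the 20 probe sets of JAK and STAT genes on the hAFS-CMHypo + Dox array (red points) and the Dox array (dark points), 1 array per condition. A dotted line marks 5.10, the median of all values. At 11 probe sets the red point has the higher value and at 9 the lower one, and the distance between points of one row, not between rows, can be read.

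The markers fixed for cell types bear on what the cultures held. The 10 cardiomyocyte markers had a mean log2 value of 13.65 with hAFS-CMHypo + Dox and 13.80 with Dox, and none lay below 9.78. None of them was higher past the probe set SD and 2 were lower, *Pln*, the regulator of the calcium pump, with a log2 ratio of -0.57 (down to -0.87 among 3 probe sets) and *Myh7*, a myosin heavy chain, with -0.27. Past that SD, 17.5% of all genes were higher and 15.5% were lower. Probe sets of fibroblast, endothelial, smooth muscle and leukocyte markers carried signal as well. Of the 10 fibroblast markers, 3 were higher and 4 were lower past the probe set SD, with log2 ratios between -1.03 (*Tcf21*, which had 0.18 at its other probe set) and 1.10 (*Lum*, which the study had picked from these arrays as up-regulated). Of 10 endothelial markers, 1 was higher and 1 was lower past that SD, and of 6 smooth muscle and pericyte markers 2 were higher and none was lower. The part of these cells in the results below was not tested. In bulk RNA, fewer cells of a type and less RNA per cell cannot be told apart.

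The region just upstream of the transcription start is shown for the 3 genes with the largest positive log2 ratios and for the one with the largest negative ratio, because STATs and the interferon complex that holds STAT2 bind short DNA motifs in promoters of their targets. The sequences are the 250 bases before the start in RefSeq's annotation of GRCm38.p6, written 5′ to 3′ on the strand of the gene, and capitals mark a match to any of the motifs searched.
Jak1 (chr4:101265224-101265473, minus strand): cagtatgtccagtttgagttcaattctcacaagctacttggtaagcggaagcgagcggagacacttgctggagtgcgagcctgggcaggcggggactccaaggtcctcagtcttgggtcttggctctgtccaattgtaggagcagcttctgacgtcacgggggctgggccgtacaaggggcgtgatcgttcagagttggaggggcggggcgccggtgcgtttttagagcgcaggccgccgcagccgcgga
Jak2 (chr19:29251553-29251802, plus strand): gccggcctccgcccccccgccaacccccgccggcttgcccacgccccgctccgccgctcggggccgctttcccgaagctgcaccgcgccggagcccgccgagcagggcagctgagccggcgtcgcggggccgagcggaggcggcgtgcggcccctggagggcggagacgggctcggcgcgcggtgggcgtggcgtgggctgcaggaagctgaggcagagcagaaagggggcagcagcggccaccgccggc
Stat3 (chr11:100939541-100939790, minus strand): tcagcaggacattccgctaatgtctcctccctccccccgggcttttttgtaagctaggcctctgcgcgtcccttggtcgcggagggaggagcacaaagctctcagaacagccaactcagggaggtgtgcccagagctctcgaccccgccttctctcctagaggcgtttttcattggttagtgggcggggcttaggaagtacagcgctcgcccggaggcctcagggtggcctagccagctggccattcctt
Stat2 (chr10:128270248-128270497, plus strand): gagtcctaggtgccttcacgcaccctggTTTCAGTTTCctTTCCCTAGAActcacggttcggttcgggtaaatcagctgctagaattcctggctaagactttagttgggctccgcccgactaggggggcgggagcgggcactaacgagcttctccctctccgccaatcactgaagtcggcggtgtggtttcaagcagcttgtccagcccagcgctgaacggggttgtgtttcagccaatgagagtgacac

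Both strands were searched for TTCNNNGAA, the gamma-activated site that most STATs bind, for TTCNNNNGAA, the wider spacing preferred by STAT6, and for GAAANNGAAA, the core of the interferon-stimulated response element. Of the 11 windows annotated for the 9 genes, only the one of *Stat2* held a match. It held TTTCAGTTTC from position -222, which reads GAAANNGAAA on the other strand, and TTCCCTAGAA from position -210, where -1 is the base before the start and the matches do not overlap. Over all 32851 windows of this length, GAAANNGAAA was found in 2.98%, TTCNNNNGAA in 5.85% and TTCNNNGAA in 7.02%. The windows of *Jak1*, *Jak2* and *Stat3* held none of these letters. A match is a description of the sequence, and more distant sites were not searched. The G and C content of the 11 windows lay between 46.4% and 82.0%, with 80.8% in the window of *Jak2*, and the median of all windows was 52.4%.

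*Jak1* had the largest difference of the kinases at the brightest probe sets, though not with the mean of all probe sets, where *Jak2* had 0.43 and *Jak1* 0.26. JAK1 is the kinase shared by the gp130, interferon and common gamma chain receptors. At its brightest probe set, the log2 value was 10.78 with hAFS-CMHypo + Dox and 10.25 with Dox. The log2 ratio was 0.53, or 1.45-fold, and 3.13% of all genes had one as high or higher. The next probe set read 8.28 with hAFS-CMHypo + Dox and 7.83 with Dox, a log2 ratio of 0.45. The third went the other way, reading 7.56 with hAFS-CMHypo + Dox and 7.75 with Dox, a log2 ratio of -0.19. The probe sets of *Jak1* therefore disagreed in sign, over a range of 0.72.

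*Jak2* was the member whose probe sets lay closest in log2 ratio, with a range of 0.004, and *Tyk2* came next with 0.05. JAK2 serves the receptors for erythropoietin, growth hormone and prolactin and the beta common chain, and is one of the kinases on gp130. Its log2 values were 8.56 with hAFS-CMHypo + Dox and 8.13 with Dox at one probe set, a log2 ratio of 0.43. At the other they were 7.90 with hAFS-CMHypo + Dox and 7.47 with Dox, a log2 ratio of 0.44. Both correspond to 1.35-fold, about 2.02 times the probe set SD at the first, and 4.99% of all genes had a ratio as high or higher than that of the gene.

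The other kinases differed by less than the probe set SD. *Tyk2*, which codes for the kinase on the type I interferon and IL-12 receptors, had log2 values of 6.37 with hAFS-CMHypo + Dox and 6.40 with Dox, a log2 ratio of -0.04. Its other probe set gave -0.09 (6.34 with hAFS-CMHypo + Dox, 6.43 with Dox). *Jak3* had 5.73 with hAFS-CMHypo + Dox and 5.87 with Dox at its only probe set of its own, a log2 ratio of -0.14. Another 2 probe sets name *Jak3* together with *Insl3*, its neighbour on the chromosome, and so did not count as members. They gave log2 ratios of 0.16 (8.01 with hAFS-CMHypo + Dox, 7.86 with Dox) and 0.17 (3.32 with hAFS-CMHypo + Dox, 3.15 with Dox, both below the 25th percentile of all values, 3.80). Which of the transcripts they read is not known, so they do not settle the sign of *Jak3*. Leukocyte markers are given beside it because blood cells are the main source of JAK3. Against 17.5% and 15.5% of all genes, 4 of the 14 markers measured were higher and 2 were lower past the probe set SD. Their mean log2 value was 7.26 with hAFS-CMHypo + Dox and 7.19 with Dox, with values from 4.21 to 11.80 in hAFS-CMHypo + Dox and from 4.80 to 11.91 in Dox, and none lay below the 25th percentile on both arrays. Their part in the level of *Jak3* was not tested.

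**Figure D2:**
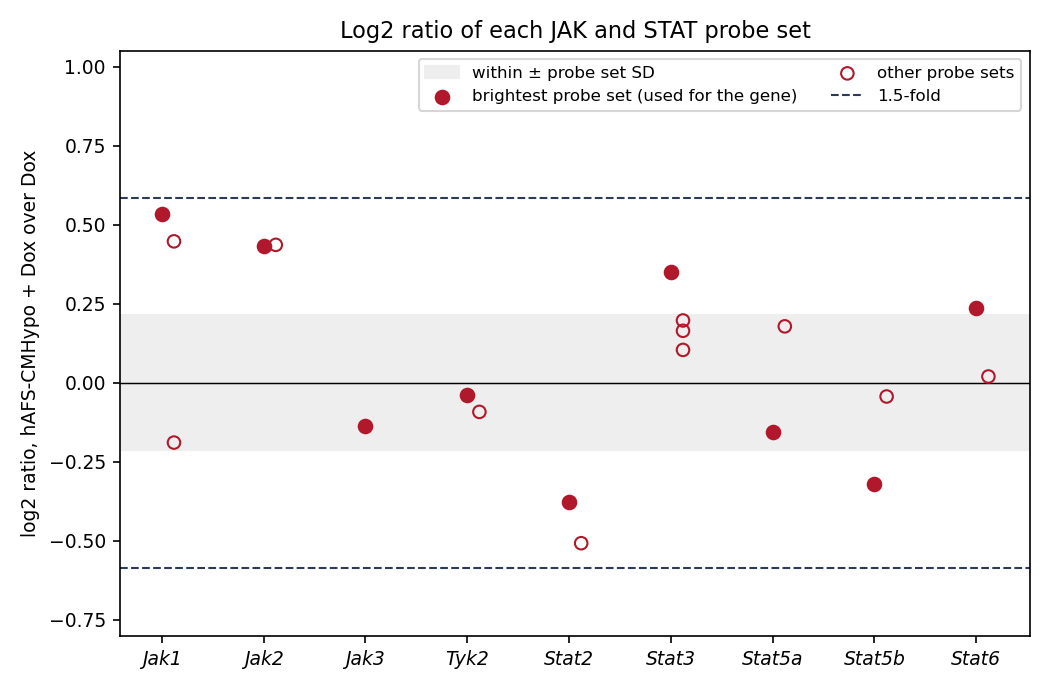
Log2 ratio (vertical axis), hAFS-CMHypo + Dox over Dox, of each of the 20 probe sets of JAK and STAT genes (horizontal axis), with the brightest probe set of a gene filled and the others open. The grey band is 0 ± 0.21, the probe set SD, and the dashed lines mark 1.5-fold, which no point reaches. The points of *Jak2* nearly coincide at 0.43 and 0.44, and those of *Jak1* range from -0.19 to 0.53.

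*Stat3* was higher with hAFS-CMHypo + Dox at all 4 of its probe sets. It codes for the STAT that gp130 receptors activate. The brightest read 10.52 with hAFS-CMHypo + Dox and 10.16 with Dox, a log2 ratio of 0.35 or 1.28-fold. The second read 10.29 with hAFS-CMHypo + Dox and 10.13 with Dox, a log2 ratio of 0.16. The others gave 0.20 (5.17 with hAFS-CMHypo + Dox, 4.98 with Dox) and 0.10 (4.26 with hAFS-CMHypo + Dox, 4.15 with Dox). Only the first exceeded the probe set SD, and 7.79% of all genes had a log2 ratio as high or higher.

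*Stat6*, which codes for the STAT of the IL-4 and IL-13 receptors, lay close to the probe set SD. Its log2 values were 8.59 with hAFS-CMHypo + Dox and 8.35 with Dox, a log2 ratio of 0.24. The other probe set had 7.40 with hAFS-CMHypo + Dox and 7.38 with Dox, a log2 ratio of 0.02. Thus 1 of its 2 probe sets showed a difference past that SD, and 15.3% of all genes had a ratio as high or higher.

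*Stat2* was the lowest of the family relative to Dox, at both of its probe sets. STAT2 works with IRF9 in the complex ISGF3, through which type I interferons switch on their targets. Its log2 values were 5.01 with hAFS-CMHypo + Dox and 5.39 with Dox, a log2 ratio of -0.38. The other probe set had 3.87 with hAFS-CMHypo + Dox and 4.37 with Dox, a log2 ratio of -0.51. Both lay in the lower part of the range, near or below the median of all values (5.10), and 5.05% of all genes had a log2 ratio as low or lower.

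*Stat5a* and *Stat5b* code for near-identical STATs that act downstream of growth hormone, prolactin and IL-2 type receptors, so that some probes could read both transcripts. *Stat5b* had log2 values of 7.18 with hAFS-CMHypo + Dox and 7.51 with Dox, a log2 ratio of -0.32, and its other probe set had -0.04 (6.32 with hAFS-CMHypo + Dox, 6.37 with Dox). *Stat5a* had 6.61 with hAFS-CMHypo + Dox and 6.76 with Dox, a log2 ratio of -0.16. The dimmer probe set read 5.31 with hAFS-CMHypo + Dox and 5.14 with Dox, a log2 ratio of 0.18. *Stat5b* was thus lower at both probe sets but past the SD at 1, and the sign of *Stat5a* depended on the probe set.

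**Figure D3:**
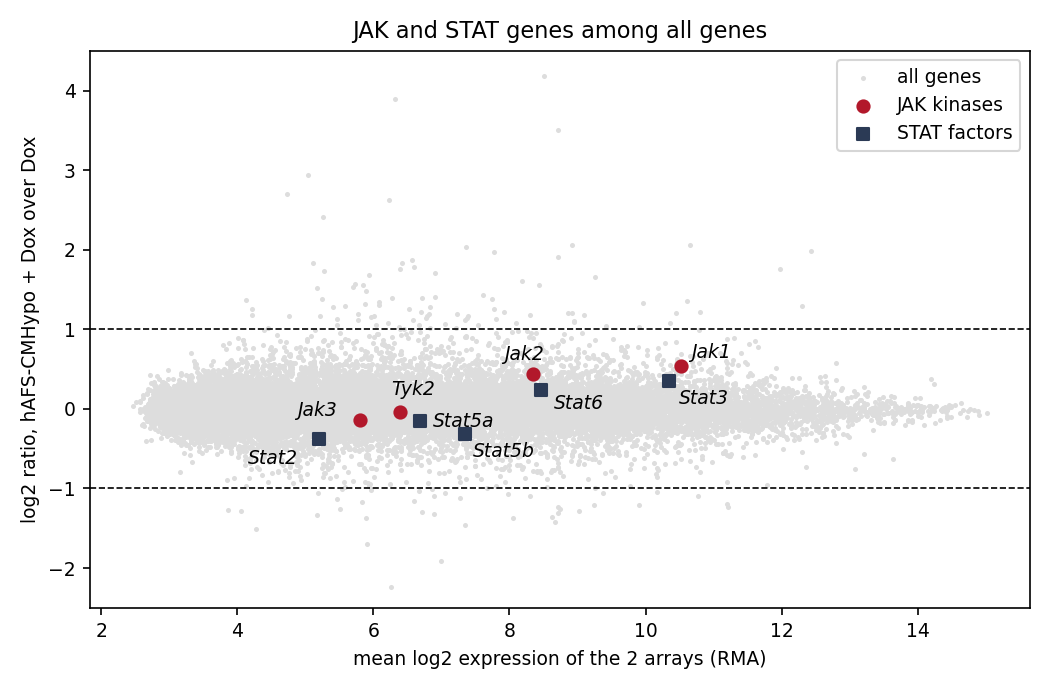
Log2 ratio (vertical axis), hAFS-CMHypo + Dox over Dox, of each of 18193 genes, read at its brightest probe set, against the mean of its log2 values (horizontal axis). Red circles are JAK kinases, dark squares are STAT factors, grey points are all genes and dashed lines mark 2-fold; the 9 named genes lie between -0.38 and 0.53.

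The genes around the family were described through 11 lists of receptors, ligands, brakes, partners and targets, without the JAK and STAT genes themselves. Of the 143 genes on these lists, 11 were at least 2-fold higher, against 0.506% of all genes, and 0 were at least 2-fold lower, against 0.214%. The study had picked 4 of the 143 (*Il6*, *Socs2*, *Steap4* and *Timp1*) from these arrays as up-regulated, and the others were listed with earlier results known, so the direction of these lists is not independent evidence. Past the probe set SD, the shares of all genes were 17.5% higher and 15.5% lower, against which the counts of each list can be read.

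Receptors of the gp130 family, which use JAK1, JAK2 and TYK2, differed gene by gene. So did a list that joins common gamma chain receptors, which use JAK1 and JAK3, with IL-4/IL-13 receptors and *Crlf2*. Of 8 gp130 family receptors, 3 were higher and 2 were lower past the probe set SD. *Il6st*, which codes for gp130 itself, had log2 values of 11.63 with hAFS-CMHypo + Dox and 11.08 with Dox, a log2 ratio of 0.55, and its 4 probe sets ranged from 0.35 to 0.55. *Lifr*, the receptor chain for LIF, had -0.26 (down to -0.35 among 3 probe sets), and *Il6ra*, the chain that binds IL-6, had -0.23. *Osmr*, the oncostatin M receptor, had 1.66 but as low as -0.04 among its 3 probe sets, and *Cntfr* had 0.35 and -0.18 at its 2. Of 10 common gamma chain and IL-4/IL-13 receptors, 4 were higher past that SD, all of them named next, 1 was lower and 5 lay within it. *Il2rg*, which codes for the common gamma chain itself, was listed but not measured. *Il13ra1*, which pairs with the IL-4 receptor alpha chain, had log2 values of 9.10 with hAFS-CMHypo + Dox and 8.45 with Dox, a log2 ratio of 0.65, and ranged from 0.29 to 0.65 over its 5 probe sets. *Il4ra*, that alpha chain, had 1.54 but a value near 0 at one of 3 probe sets. *Il13ra2*, a decoy for IL-13, had 0.52 and *Crlf2*, the receptor for TSLP, had 0.31.

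Receptors that rely on JAK2 alone, and those for interferons, IL-10 and IL-12, had differences in both directions. Of 7 beta common and homodimeric receptors, 2 were higher and 2 were lower past the probe set SD, and none reached 2-fold. The higher ones were *Csf2rb*, the beta common chain itself, with 4.61 with hAFS-CMHypo + Dox and 3.85 with Dox, a log2 ratio of 0.77, and its near-identical neighbour *Csf2rb2*, with 0.33. Both lay below the median of all values on both arrays and were named after their values were seen. *Ghr*, the growth hormone receptor, had -0.25, with 0.22 at its highest probe set, and *Epor* had -0.12, *Il3ra* -0.10 and *Csf2ra* 0.02. Of 11 interferon, IL-10 and IL-12 family receptors, 1 was higher and 3 were lower past that SD, with a median of -0.02. *Ifngr1*, the ligand-binding chain for interferon gamma, had 0.24, and its partner *Ifngr2* had -0.22 (-0.87 at its other probe set). *Ifnar2*, the type I interferon receptor chain that carries JAK1, had -0.05, with up to 0.66 among 3 probe sets, and *Il10rb* had 0.12 and -0.34.

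Among 28 ligands of JAK-coupled receptors, *Il6* was the only one past 2-fold, at a log2 ratio of 2.62. By the probe set SD, 7 were higher and 5 were lower (median 0.01). *Lif*, which signals through gp130 and *Lifr*, had 0.65 and -0.03 at its 2 probe sets. *Il15*, a ligand of the common gamma chain, had 4.93 with hAFS-CMHypo + Dox and 5.80 with Dox, a log2 ratio of -0.87. *Il7*, another ligand of that chain, went the other way with 4.39 in hAFS-CMHypo + Dox and 3.63 in Dox, a log2 ratio of 0.76, also below the median of all values and named after its value was seen. *Gh* ranged from -0.43 to 0.41 over 4 probe sets.

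Of 20 brakes on JAK and STAT, 6 were higher and 2 were lower past the probe set SD, and 1 was past 2-fold. *Socs3*, the suppressor that blocks JAK on gp130, had log2 values of 9.94 with hAFS-CMHypo + Dox and 8.90 with Dox, a log2 ratio of 1.04, and its 3 probe sets lay between 1.00 and 1.12. *Ptpn1*, a phosphatase of JAK2 and TYK2, had 0.61 (9.78 with hAFS-CMHypo + Dox, 9.17 with Dox) and 0.27 at its other probe set. *Pdlim2*, a ubiquitin ligase that acts on STATs, had 7.61 with hAFS-CMHypo + Dox and 8.38 with Dox, a log2 ratio of -0.77. *Socs2*, induced by STAT5, had 0.53, with its 6 probe sets from -0.13 to 1.56. Among 11 partners and coactivators, 3 were higher and none was lower past that SD: *Irf9*, the DNA-binding partner of STAT2, had 0.27 (6.10 with hAFS-CMHypo + Dox, 5.83 with Dox), *Stam* had 0.24 with its lowest probe set at -0.08, and the coactivator *Crebbp* had 0.25 with its 4 probe sets down to -0.62. *Nmi*, a STAT-interacting protein, had 0.21.

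**Figure D4:**
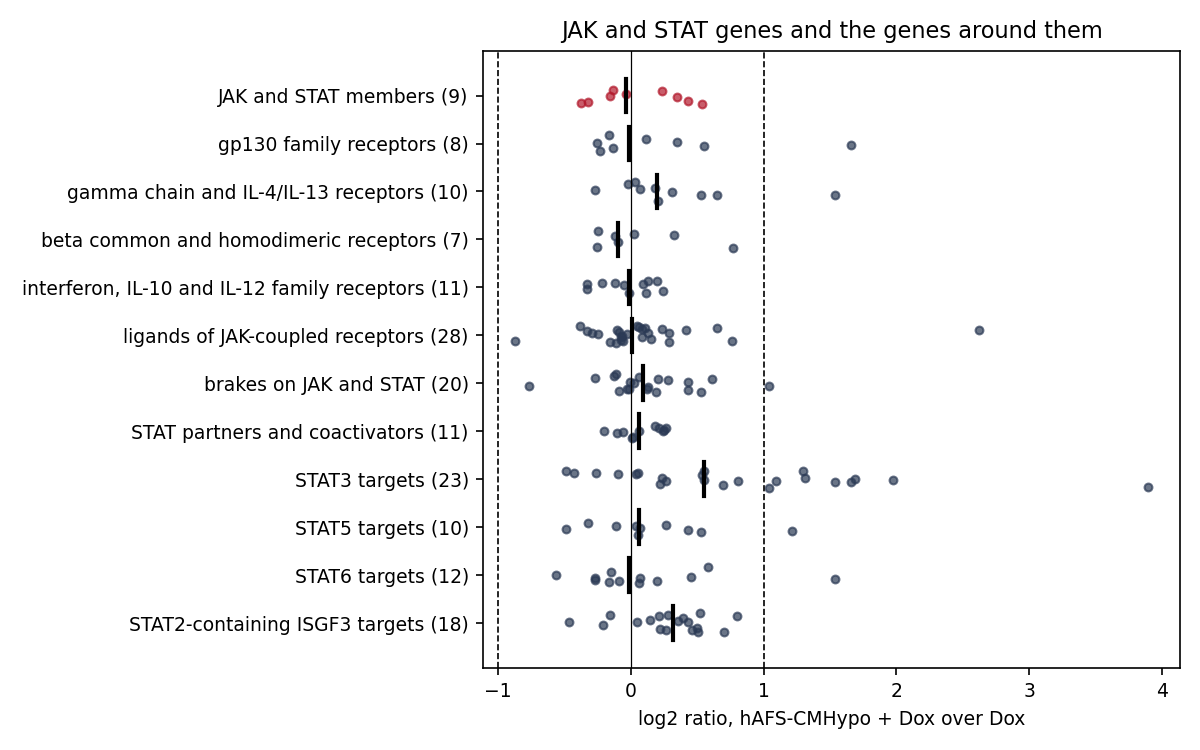
Log2 ratio (horizontal axis), hAFS-CMHypo + Dox over Dox, of the 9 JAK and STAT genes (red points, top row) and of the genes of 11 lists around them (dark points), with the number measured in brackets. Black bars are medians and dashed lines mark 2-fold; the median is 0.55 for STAT3 targets, 0.32 for ISGF3 targets and -0.04 for the JAK and STAT genes.

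Genes known as targets of each STAT are given beside the level of that STAT. The lists do not record whether a STAT raises or lowers a target. *Stat3* itself had a log2 ratio of 0.35, and 9 of 23 STAT3 targets were at least 2-fold higher, with 0 at least 2-fold lower (median 0.55). Of all genes, 0.506% were at least 2-fold higher and 0.214% at least 2-fold lower. Without *Steap4* and *Timp1*, which the study picked, 7 of 21 were past 2-fold, with a median of 0.55, but the rest were listed with earlier results known as well. The targets with the largest log2 ratios were *Steap4*, a metalloreductase, with 3.90 (2.49 at its other probe set), *Serpina3n*, an acute-phase protease inhibitor, with 1.97, *Bcl3*, which binds NF-κB, with 1.69, and *Osmr*, with 1.66. By the probe set SD, 17 of the 23 were higher and 3 were lower, against 17.5% and 15.5% of all genes. *Stat2* had -0.38, whereas of 18 ISGF3 targets 12 were higher and 1 was lower past that SD, with none past 2-fold (median 0.32), beside the same shares of all genes. Some of the higher ones lay below the median of all values on both arrays. The median log2 ratio was 0.27 over the ISGF3 targets that reached that level on the higher array. *Rtp4* had 0.70 (0.06 at its other probe set). *Irf7*, the interferon regulatory factor, had 0.52 (5.33 with hAFS-CMHypo + Dox, 4.81 with Dox). *Ifih1*, a sensor of viral RNA, had 0.50, and *Ifit2* had -0.47.

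Targets of STAT5 and STAT6 lay on both sides of 0. Of 10 STAT5 targets, 4 were higher and 2 were lower past the probe set SD (median 0.06). *Bcl6*, a transcriptional repressor, had log2 values of 8.53 with hAFS-CMHypo + Dox and 7.32 with Dox, a log2 ratio of 1.22, and 0.46 at its other probe set. *Cish*, a suppressor in the SOCS family, had 0.43, and *Ccnd1*, cyclin D1, had -0.49 (-0.70 to -0.42 over 3 probe sets). Of 12 STAT6 targets, 3 were higher and 3 were lower past that SD (median -0.02), against 17.5% and 15.5% of all genes, with *Il4ra* the only one past 2-fold. The median was 0.26 over the STAT6 targets that reached the median of all values on the higher array. *Tgm2*, transglutaminase 2, had 13.09 with hAFS-CMHypo + Dox and 12.51 with Dox, a log2 ratio of 0.58, with its 6 probe sets from 0.38 to 0.75. *Mrc1*, a macrophage mannose receptor, had 0.45 and *Socs1* had -0.27. Among the target lists, STAT3 and STAT5 share 3 genes and STAT3 and STAT6 share 1. The target lists also share genes with the other lists. *Osmr*, *Il6st*, *Il4ra* and *Socs3* are STAT3 targets as well as receptors or brakes. *Socs2*, *Cish*, *Socs1*, *Usp18*, *Irf9*, *Osm* and *Il2ra* are each on a target list and on another list. The genes past 2-fold on the receptor and brake lists (*Osmr*, *Il4ra* and *Socs3*) are thus counted again among the STAT3 targets.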

How the data were processed

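RNA of mNVCM was hybridised to Affymetrix mouse arrays, 1 per condition. The authors deposited log2 values, 1 for each of 45101 probe sets, that RMA had background-corrected, quantile-normalized and summarised; RMA can compress differences of dim probe sets. The log2 scale was inferred from the range, 2.37 to 15.05, and the software version is not given in the sources used here. Symbols of the platform annotation were updated by Entrez ID with RefSeq (GRCm38.p6), which held 34741 of the 34945 probe sets with 1 gene, and 64 control probe sets were dropped.

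Log2 ratios, hAFS-CMHypo + Dox over Dox, were taken as they stand, per probe set and per gene at the brightest probe set. No test was possible, since the number of arrays leaves no estimate of error. The genes described and the lists were chosen with earlier results of these data known. The text names every JAK and STAT probe set and, from each list, up to 4 genes with the largest absolute log2 ratio among those reaching the median of all values on the higher array. *Il6ra*, *Csf2rb*, *Csf2rb2* and *Il7* were added after their values were seen. Listed genes without a probe set of their own were not analysed here. Alternatives covered thresholds, signal filters, centring, lowess (span 0.3) and the choice of probe set. Counting was tested on simulated data. Python 3.11.15, pandas 2.3.3, numpy 2.4.6, matplotlib 3.10.9 and statsmodels 0.14.6 were used.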

Additional observations from a re-analysis of the deposited data

How the results depend on the processing

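None of the 9 JAK and STAT genes reached 2-fold with the mean of all probe sets, the probe set of largest change, the less specific probe sets left out, a filter at the median or the 25th percentile, centring or lowess correction, and none reached 1.5-fold or 3-fold. Their median log2 ratio, -0.04, was 0.18 with the probe set of largest change, because *Stat5a* then had 0.18. *Jak1* had 0.26 with the mean of its probe sets, and *Jak3* had 0.16 when probe sets shared with *Insl3* were admitted. With the probe set SD as the threshold, an alternative added after seeing the data, 6 genes and 9 probe sets of the family were past it. Of these genes, *Stat3*, *Stat6* and *Stat5b* were within it with the mean of their probe sets. Past that SD, 17.5% of all genes were higher and 15.5% lower, and 17.2% and 16.3% of all probe sets with 1 gene. Of the 143 genes of the lists, 74 were past it, 52 of them higher and 22 lower. The lists held 22 genes past 1.5-fold, against 3.84% of all genes, and 11 past 2-fold, against 0.72%. They held 5 past 3-fold, for which the share of all genes was not taken. The count past 2-fold was 8 with the mean of all probe sets and 10 with the less specific probe sets left out. It was 12 with the probe set of largest change. Shares of all genes were not taken for these choices. With the filter at the median, the medians of gp130 receptors (0.23), common gamma chain and IL-4/IL-13 receptors (0.59) and STAT6 targets (0.26) moved by more than the probe set SD, since fewer genes were counted; that of interferon, IL-10 and IL-12 receptors was -0.24 with the probe set of largest change. No paired analysis was possible because each condition had 1 array, and no array could be left out.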

Other observations

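*Stat5b*, *Stat5a* and *Stat3* are consecutive protein-coding genes on mouse chromosome 11 in RefSeq's annotation. Their log2 ratios of hAFS-CMHypo + Dox over Dox were -0.32, -0.16 and 0.35 at the brightest probe set of each. Neighbours on the chromosome therefore lay on both sides of 0, with the reservation that the sign of *Stat5a* depended on the probe set.

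Of the 8 JAK and STAT genes with several probe sets, 6 had log2 ratios of 1 sign at all of them (75.0%). *Jak1* and *Stat5a* did not. Over the 9010 genes with several probe sets, 44.5% had ratios of 1 sign, and the number of probe sets per gene, which sets how often they can disagree, was not matched. The range of ratios over the probe sets of a gene had a median of 0.23 in the JAK and STAT genes and 0.27 in all genes.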
